A study of Mus musculus with 4 samples.

Results

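Transcripts of centrosome and centriole genes were followed between RNA recovered with FLAG-tagged NANOS2 and the starting RNA of the same kind of testis. Members were taken by name: every gene whose symbol begins with Cep or Tubgcp followed by a digit, together with Plk4, Pcnt, Sass6, Stil, Cenpj, Tubg1, Tubg2 and Ninl. The RefSeq gene table holds 54 such genes, of which 38 had an array probe whose accession matched and 37 were bright enough to test, out of 21589 features tested in all. A gene or unnamed accession counts as 1 feature, and a feature was tested when both Input arrays, or both FLAG IP arrays, showed it well above background. No measured value enters the naming rule, but the set was proposed with the changes of these arrays known, so the changes, calls and counts below describe the members and no test was made over the set.

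NANOS2 binds RNA in male germ cells, and all samples came from testis at postnatal day 7 of mice that carry the transgene Tg-Nanos2 enhancer-3xFLAG-Nanos2-3′UTR, in which a Nanos2 enhancer drives the tagged protein. There were 2 groups with 2 biological replicates each: RNA of the starting material (Input) and RNA recovered by FLAG immunoprecipitation (FLAG IP). Both groups carry the transgene, the labels do not say how many animals went into a sample, and the description field of all 4 samples names a fetal gonad where the titles and characteristics give day 7. A FLAG recovery from untagged testis was not analysed here. A change therefore gives how the make-up of the recovered RNA differs from that of the Input, and is not in itself evidence of binding. Fewer cells of a type and less RNA per cell cannot be told apart in such bulk RNA.

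A centrosome is a pair of centrioles, barrels of microtubules, embedded in pericentriolar material that anchors and nucleates microtubules. The kinase PLK4 starts the building of a new centriole by bringing STIL and SASS6 to the side of the old one, where SASS6 forms the cartwheel, and other proteins set the length of the barrel and turn the new centriole into a working centrosome. Gamma-tubulin ring complexes in the surrounding material seed microtubules, and the older centriole can dock at the cell surface by its distal appendages to form a cilium. In the male germ line centrosomes organise the spindles of dividing spermatogonia, and a centriole later carries the axoneme of the sperm tail.

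Each level is a log2 signal centred on its own array's 75th percentile, so that 0 is the signal that 75 of 100 probes fall below. A change is FLAG IP minus Input on that scale, its error is the moderated standard error (SE) of limma with n = 2 arrays per group, and a transcript is called higher or lower at an adjusted p under 0.05 in the fit over all tested features. Of the 37 tested members 11 were called higher in the FLAG IP and 3 lower. Over all tested features 15.8% were called higher and 21.3% lower, and 37.1% either way. Of the 37, 8 (21.6%) were called higher by at least 2-fold and 1 (2.7%) lower. Over all tested features 9.29% were called higher and 8.65% lower by as much. The median change of the tested members was 0.16 against −0.15 for all tested features, with 22 changes above 0 and 15 below. The groups' arrays did not overlap for 26 members, with 17 above and 9 below, where 29.8% of all tested features lay above and 44.7% below. With spike-in control spots as the scale in place of the 75th percentile, the median of all tested features was −0.97, and 3 members were called higher and 15 lower, where 4.31% of all tested features were called higher and 62.4% lower. On that scaling the changes of Cep19, Cep72 and Cep97 turned to −0.33, −0.08 and −0.06, and the other 8 members called higher stayed above 0.

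**Figure D1:**
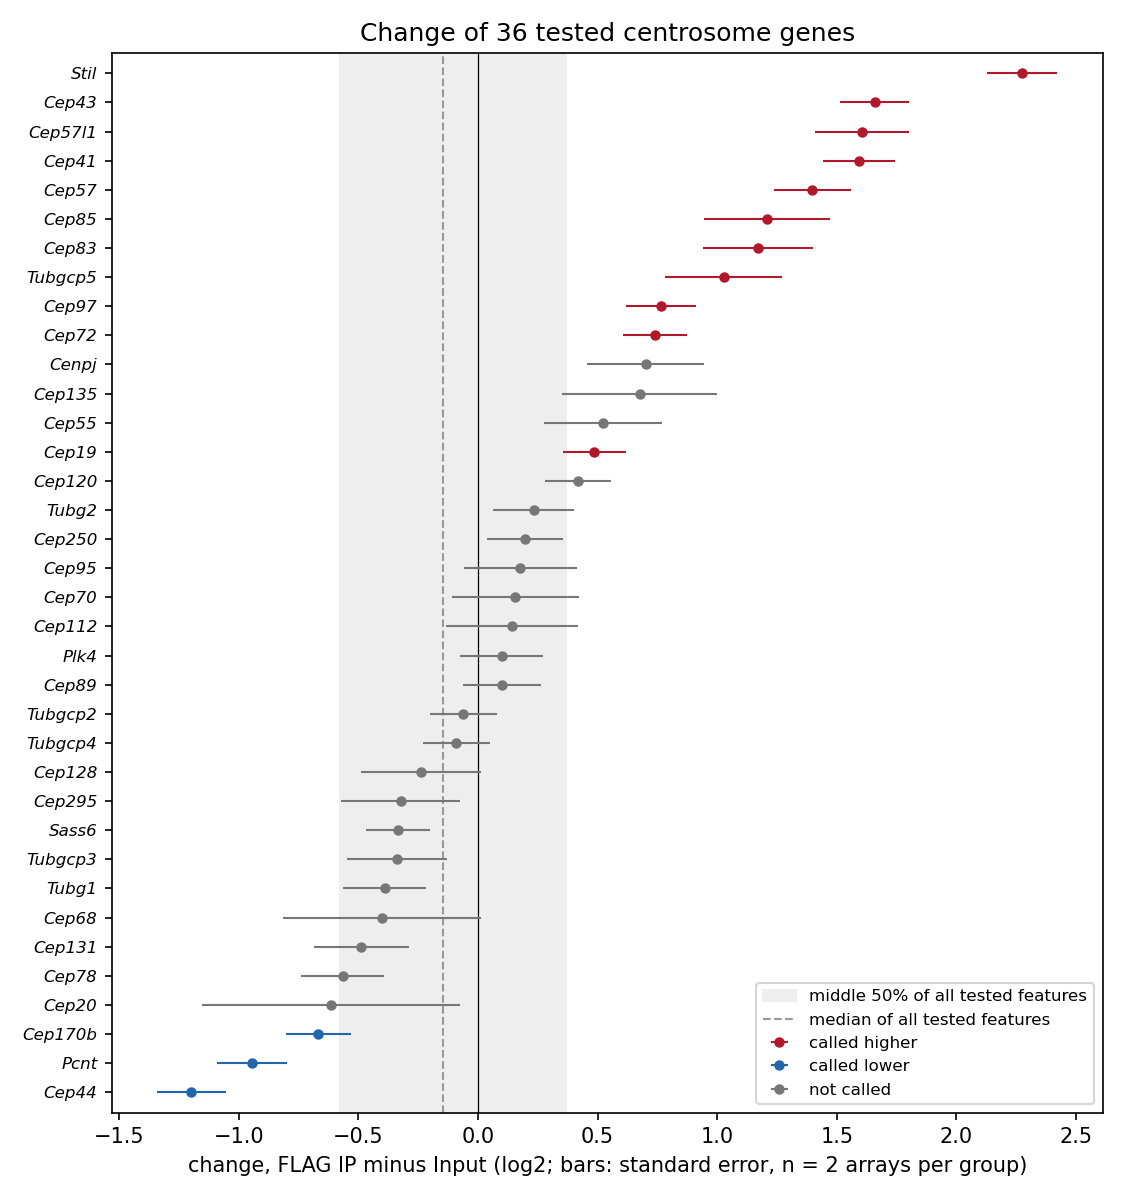
Change of 36 of the 37 tested centrosome and centriole genes, FLAG IP minus Input on the log2 scale, with bars for the standard error (n = 2 arrays per group), the dashed line for the median of all tested features (−0.15) and the grey band for their middle 50%. Stil lies highest at 2.28 and Cep44 lowest at −1.20; Cep19, Cep72 and Cep97, shown in red, fall below 0 under spike-in scaling.

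Among the factors that start a new centriole, the STIL transcript was the one with the highest change of all members. Stil (RefSeq transcript NM_009185) had levels of −2.41 and −2.34 on the Input arrays and −0.01 and −0.20 on the FLAG IP arrays. Both FLAG IP arrays thus lay far above both Input arrays, with a change of 2.28 ± 0.15 (SE), or 4.84-fold, and it was called higher. STIL is the scaffold that PLK4 phosphorylates and that holds SASS6 at the site of assembly. A dimmer probe of Stil was not well above background on either Input array and was so on both FLAG IP arrays, so its change is only bounded. Its mean FLAG IP level was 3.56-fold above the lowest level of any probe well above background on the Input arrays. That is a rough bound, since the lowest such level differs from probe to probe.

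The partners of STIL at that site did not share this pattern. Plk4 (NM_011495), the kinase itself, had −0.17 and −0.38 in the Input and −0.31 and −0.04 in the FLAG IP. Its groups overlapped and it was not called, at 0.10 ± 0.17, and its other probe gave 0.24 ± 0.25. Sass6 (NM_028349), the cartwheel protein, had −0.72 and −0.74 in the Input and −1.09 and −1.04 in the FLAG IP. Its FLAG IP arrays lay just under its Input arrays, at −0.33 ± 0.13 with −0.40 ± 0.15 on its other probe, and it was not called. Whether the change of Stil differs from those of Plk4 and Sass6 was not tested.

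CEP85, which binds STIL and helps it activate PLK4, was encoded by a transcript called higher. Cep85 (NM_144527) had 0.33 and 0.40 in the Input and 1.22 and 1.93 in the FLAG IP. The groups did not overlap, the FLAG IP arrays differed by 0.70 between themselves, and the change was 1.21 ± 0.26, or 2.31-fold. It was 0.39 and not called under spike-in scaling, and the call was also lost without the filter on dim probes and without either Input array. CEP57 and its paralogue CEP57L1 sit around the wall of the old centriole and help to keep the pair engaged. Cep57 (NM_026665) had 0.00 and −0.11 in the Input and 1.48 and 1.21 in the FLAG IP, a change of 1.40 ± 0.16 and 2.64-fold. Cep57l1 (NM_026643) had −0.57 and −0.90 in the Input and 0.72 and 1.02 in the FLAG IP, a change of 1.61 ± 0.20 and 3.04-fold. Both paralogues were called higher with groups well apart, and the other probes of Cep57l1 gave 1.28 and 1.73, both called. In this role group 4 of 6 tested members were called higher and 0 lower, where 15.8% and 21.3% of all tested features were. The group's median was 1.30. Under spike-in scaling that median was 0.48, with 1 member called higher and 1 lower. On that scaling 4.31% of all tested features were called higher and 62.4% lower.

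**Figure D2:**
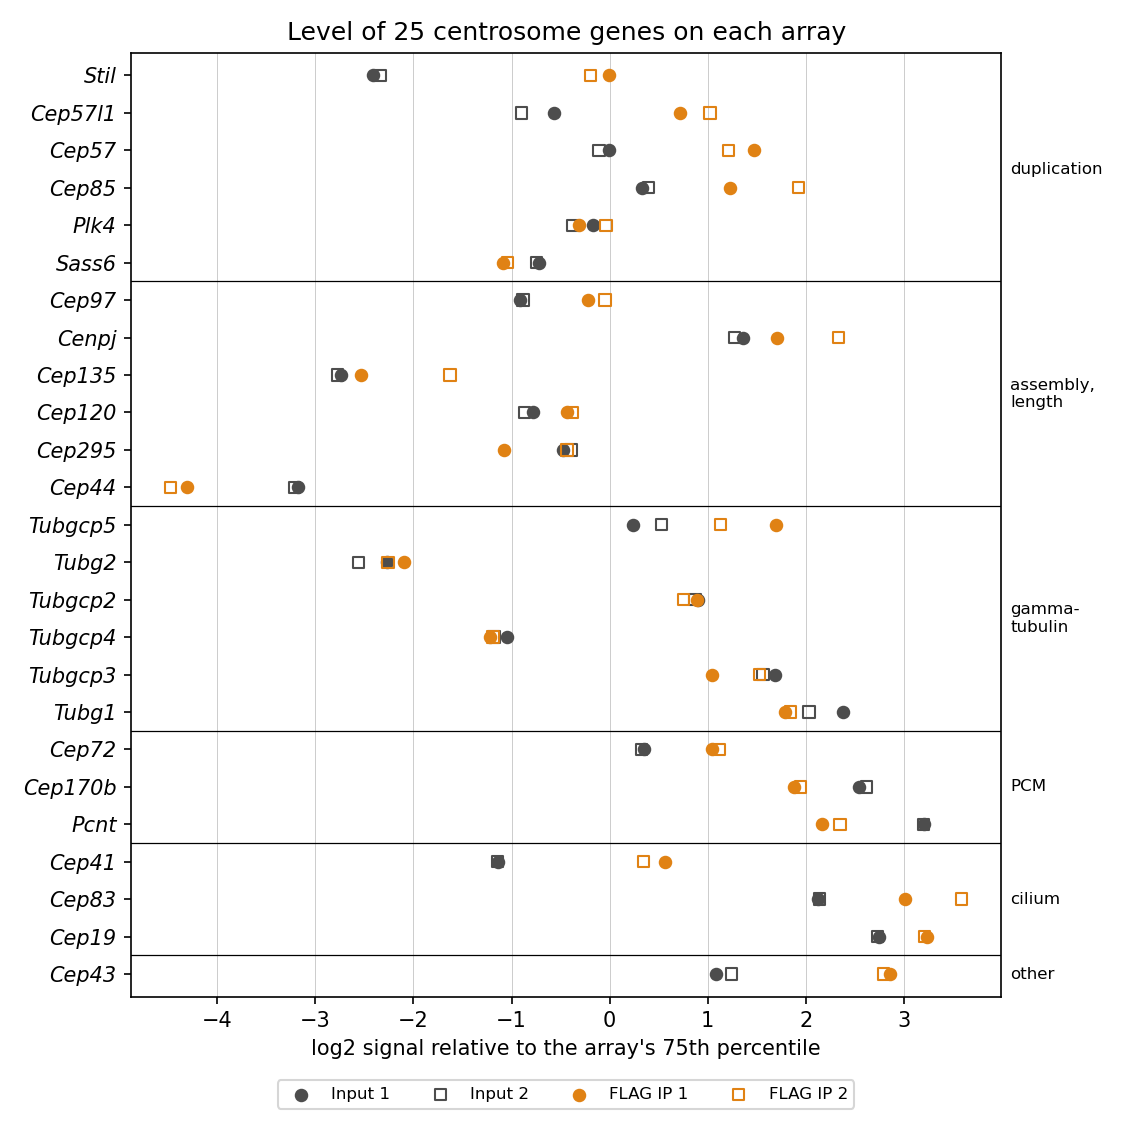
Level of 25 centrosome and centriole genes on each of the 4 arrays, as log2 signal centred on the array's 75th percentile, with Input in grey and FLAG IP in orange, circles for replicate 1 and squares for replicate 2, grouped by role (PCM, pericentriolar material). The grey and orange symbols are widely separated for Stil, Cep57l1, Cep57, Cep41 and Cep43, mixed for Plk4 and Tubgcp2, and turned round for Cep44 and Pcnt; distances between genes are not amounts, since each gene has its own probe.

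Of the 6 tested transcripts for proteins that build, cap and mature the centriole barrel, 1 was called higher and 1 lower. The shares over all tested features were 15.8% higher and 21.3% lower. Cep97 (NM_028815), whose product caps the growing end together with CCP110, had −0.92 and −0.88 in the Input and −0.22 and −0.05 in the FLAG IP. It was called higher at 0.77 ± 0.14, or 1.70-fold, and its dimmer probe went the other way without a call, at −0.27 ± 0.15. Averaging its probes ended the call. Cep44 (NM_001009951), needed for the new centriole to gather pericentriolar material, had −3.17 and −3.21 in the Input and −4.30 and −4.48 in the FLAG IP. Its FLAG IP arrays were both below its Input arrays, and it was called lower at −1.20 ± 0.14, a 2.29-fold difference. With normexp background correction its change was −0.53, still called.

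The other 4 tested members of the barrel group were not called. Cenpj (NM_001014996), which elongates centriolar microtubules, had 1.36 and 1.27 in the Input and 1.70 and 2.33 in the FLAG IP, at 0.70 ± 0.25. Cep135 (NM_199032), a link between cartwheel and wall, had −2.74 and −2.77 in the Input and −2.54 and −1.63 in the FLAG IP, at 0.68 ± 0.32. On these probes FLAG IP replicate 2 stood clear of the Input while replicate 1 was close to it. The dimmer probe of Cep135 did not show this split. It had −3.62 and −3.66 in the Input and −3.42 and −3.40 in the FLAG IP, at 0.23 ± 0.13, not called. Cep120 (NM_178686), a partner of CENPJ in elongation, had −0.78 and −0.87 in the Input and −0.43 and −0.38 in the FLAG IP, at 0.42 ± 0.14. Cep295 (NM_176976), which acts in the conversion of centriole to centrosome, had −0.47 and −0.39 in the Input and −1.08 and −0.44 in the FLAG IP, at −0.32 ± 0.25. The groups did not overlap for Cenpj, Cep135 and Cep120, and for Cep295 1 FLAG IP array lay within the Input range. The group's median was 0.55, and it was 0.23 with probes averaged, 0.30 without FLAG IP replicate 2 and −0.27 under spike-in scaling.

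Of the gamma-tubulin ring complex, the unit that seeds microtubules, 1 of 6 tested transcripts was called higher and 0 lower, with a median of −0.08. Among all tested features 15.8% were called higher and 21.3% lower. Tubgcp5 (NM_146190), a subunit present in few copies per ring, had 0.24 and 0.53 in the Input and 1.69 and 1.13 in the FLAG IP. The groups did not overlap although both pairs spread, and the change was 1.03 ± 0.25, or 2.04-fold, called higher. It was 0.21 and not called under spike-in scaling. The call was also lost with the replicate number as a block and without the filter on dim probes. It was lost too without Input replicate 1, Input replicate 2 or FLAG IP replicate 1. Tubgcp2 (NM_133755), a core subunit, had 0.90 and 0.87 in the Input and 0.90 and 0.75 in the FLAG IP, and Tubgcp3 (NM_198031), the other core subunit, had 1.69 and 1.56 against 1.05 and 1.53. Tubgcp4 (NM_153387), a further subunit, had −1.04 and −1.18 in the Input and −1.22 and −1.19 in the FLAG IP. The changes of these 3 subunits were −0.06 ± 0.14, −0.34 ± 0.21 and −0.09 ± 0.14 in that order, and none was called.

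Gamma-tubulin itself was not called from either gene. Tubg1 (NM_134024), the form expressed in most dividing cells, had 2.37 and 2.03 in the Input and 1.79 and 1.84 in the FLAG IP, a change of −0.39 ± 0.17. Tubg2 (NM_134028) had −2.27 and −2.56 in the Input and −2.10 and −2.26 in the FLAG IP, a change of 0.23 ± 0.17. The pair of genes is highly similar in sequence, and how far a probe of one also detects the other was not tested. Under spike-in scaling the change of Tubg2 was −0.59, and 4 of the 6 transcripts of the complex were called lower, where 62.4% of all tested features were.

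Pericentriolar material and microtubule anchoring transcripts held 2 of the 3 members called lower, and 1 of the 5 tested was called higher. Of all tested features 21.3% were called lower and 15.8% higher. The group's median was −0.24. That median was −0.02 with normexp background correction, −1.06 under spike-in scaling, 0.09 without FLAG IP replicate 1 and −0.56 without FLAG IP replicate 2. Pcnt (NM_008787) encodes pericentrin, the long scaffold of the material, and had 3.20 and 3.20 in the Input against 2.16 and 2.35 in the FLAG IP. The Input arrays coincided and both FLAG IP arrays lay below them, with a change of −0.94 ± 0.15, 1.92-fold lower, and a second probe at −1.19 ± 0.16 was also called lower. Cep170b (NM_001024602), a paralogue of a subdistal appendage protein, had 2.54 and 2.62 in the Input and 1.87 and 1.95 in the FLAG IP. It was called lower at −0.67 ± 0.14, with groups apart. Cep72 (NM_028959), which helps to recruit gamma-tubulin complexes, had 0.35 and 0.32 in the Input and 1.04 and 1.11 in the FLAG IP. It went the opposite way to Pcnt, at 0.74 ± 0.13 and called higher, and was −0.08 under spike-in scaling.

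Transcripts for distal appendages and the cilium were called higher in 3 of 7 tested members and lower in 0. Over all tested features 15.8% were called higher and 21.3% lower. The group's median was 0.10, and it was −0.72 under spike-in scaling. Cep41 (NM_031998), whose product supports glutamylation of ciliary tubulin, had −1.13 and −1.14 in the Input and 0.56 and 0.35 in the FLAG IP. Its groups were far apart at 1.59 ± 0.15, or 3.02-fold, while its other probes gave 1.10 ± 0.18, called, and 0.21 ± 0.15, not called. Cep83 (NM_029852), the root of the distal appendages, had 2.12 and 2.14 in the Input and 3.01 and 3.59 in the FLAG IP. The change was 1.17 ± 0.23, or 2.25-fold, and was called. Under spike-in scaling it was 0.35 and not called, and the call was also lost without the filter on dim probes and without either Input array. Cep19 (NM_025892), which brings the small GTPase RABL2 to the centriole, had 2.75 and 2.73 in the Input and 3.24 and 3.21 in the FLAG IP. Its change of 0.49 ± 0.13 was the smallest of the called ones, and was −0.33 under spike-in scaling. Cep43 (NM_201230), the centriolar protein known as FOP that binds CEP19, had 1.09 and 1.24 in the Input and 2.86 and 2.79 in the FLAG IP. It stood in no role list, was called higher at 1.66 ± 0.14, or 3.16-fold, and its other probe gave 0.75 ± 0.16, also called.

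The remaining 12 tested members were not called, with 6 changes above 0 and 6 below, from −0.61 for Cep20 to 0.52 for Cep55. They included Cep112, Cep128, Cep131, Cep20, Cep250, Cep55, Cep68, Cep70, Cep78, Cep89 and Cep95. CEP55 acts at the bridge between daughter cells in cytokinesis, CEP250 and CEP68 tie the centrioles of a pair together, and CEP131 and CEP78 serve the cilium. Cep68 was well above background on 3 of the 4 arrays, and Cep295nl was so on 0 and was not tested. Another 16 genes that the naming rule takes had no probe matched by accession and were not analysed here: Cep126, Cep152, Cep162, Cep164, Cep170, Cep192, Cep290, Cep350, Cep63, Cep76, Cep85l, Ninl, Tubgcp6 and the non-coding Cep112it, Cep112os1 and Cep83os. CEP152, CEP192 and CEP63, which place PLK4 on the centriole, are therefore missing from the account of duplication factors.

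The FLAG IP arrays differed from each other for many members, more often with replicate 2 higher. A difference over 0.5 between the FLAG IP arrays was seen in 13 of 37 members, 12 of them with replicate 2 above replicate 1, against 1 of 37 between the Input arrays. Over all tested features 21.0% differed by more than 0.5 between the FLAG IP replicates, and 9.38% did so in the Input. Of the 13, 10 were among the 23 members not called, such as Cenpj and Cep135, and the other 3 were Cep83, Cep85 and Tubgcp5. Against the mean Input, the median of the members was 0.01 on FLAG IP replicate 1 and 0.24 on replicate 2, where all tested features had −0.14 and −0.16. The spread between the FLAG IP arrays was below 0.5 for the other 8 members called higher and for all 3 called lower. A call depends on the SE, into which this spread enters, so call and spread are not independent.

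**Figure D3:**
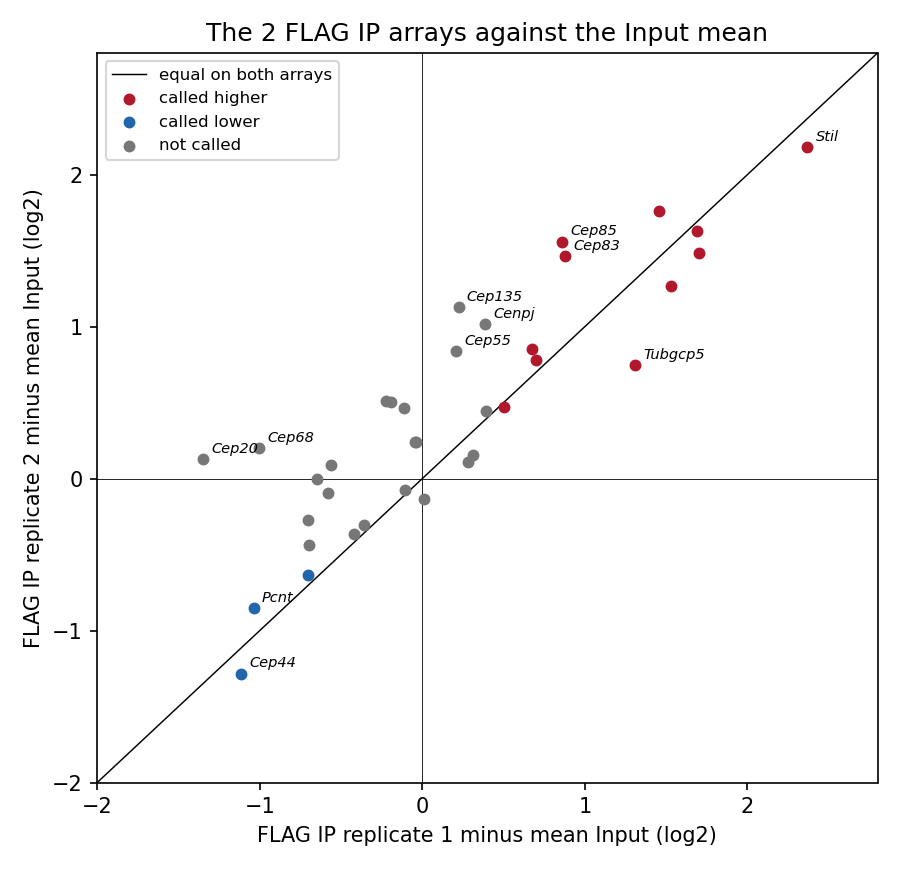
Level on each FLAG IP array minus the mean Input level for 36 of the 37 tested centrosome and centriole genes, both axes on the log2 scale, with the diagonal for equal values on both arrays. Stil lies near the diagonal at the upper right and Cep44 and Pcnt near it at the lower left, while Cep20, Cep68, Cep135, Cenpj and Cep55 lie above it, higher on replicate 2.

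Leaving out 1 array at a time showed which calls rest on all 4 arrays. Without Input replicate 1, 5 of the 14 calls remained, those of Stil, Cep41, Cep43, Cep57 and Cep57l1, and over all features 997 were called higher and 735 lower. Without Input replicate 2, 3 remained, those of Stil, Cep41 and Cep43, and over all features the calls fell from 3409 higher and 4606 lower to 1047 and 595. Without FLAG IP replicate 1 the calls of Cep19 and Tubgcp5 were lost, and without FLAG IP replicate 2 that of Cep19 was. The sign of each of the 14 changes stayed the same in all 4 of these fits. Each such fit leaves a single array in a group, which is assumed to vary like the other group.

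Several probes were tested for 14 members, and all probes of a gene had the same call in 11 genes. Stil is among them, but its dimmer probe passed the filter through the FLAG IP arrays alone. The call of that probe therefore adds no agreement for Stil. In the other 3, Cep41, Cep70 and Cep97, 1 probe was called and another was not, and 0 genes had probes called in opposite directions. Cep70, named here after its values were seen, had 0.16 ± 0.27 on its brightest probe and −0.98 ± 0.14, called lower, on a dimmer one. The median distance of a dimmer probe's change from that of the brightest was 0.28. For Pcnt, Cep43 and Cep57l1 all tested probes were called in the same direction.

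**Figure D4:**
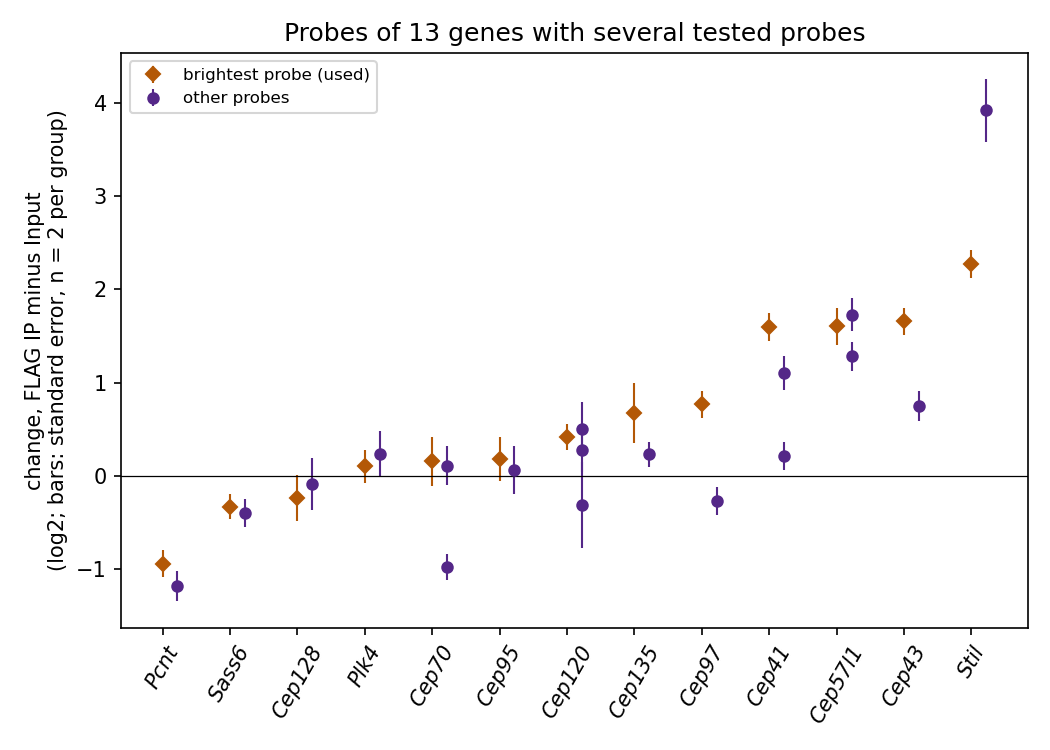
Change of every tested probe of 13 of the 14 centrosome and centriole genes with several, FLAG IP minus Input on the log2 scale, with diamonds for the brightest probe, which the text uses, circles for the others and bars for the standard error (n = 2 arrays per group). Probes of Pcnt all lie below 0 and those of Cep57l1 all above it, the circle of Stil is a probe not well above background on either Input array, and the probes of Cep70, Cep97 and Cep41 lie apart.

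Centrosome genes outside the naming rule, from a list of 54, also moved in both directions. Of the 48 tested 12 were called higher, 7 lower and 29 not, with a median of −0.01. Of all tested features 15.8% were called higher and 21.3% lower, and 37.1% either way. Spike-in scaling shifts every change by −0.82, and leaves 10 of the 12 called higher above 0. The highest were Haus3 (2.36 ± 0.13) and Haus6 (1.74 ± 0.13), subunits of augmin, which brings gamma-tubulin rings to spindle microtubules, and Nedd1 (2.33 ± 0.15), the adaptor that targets those rings. Haus3 had 2.90 and 2.96 in the Input and 5.28 and 5.29 in the FLAG IP, and Nedd1 had −0.71 and −0.70 against 1.74 and 1.50. The lowest called were Tacc1 (−1.02 ± 0.15), a microtubule-binding coiled-coil protein, Haus1 (−0.82 ± 0.15), also of augmin, and Cby1 (−0.79 ± 0.18), a protein of the ciliary base. Subunits of augmin were thus called in both directions.

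Markers of cell division and of testis cell types were read on the same arrays, and their part in the members' values was not tested. Of 16 proliferation markers 4 were called higher and 0 lower, with a median of −0.02 and a summed linear signal (1 being the 75th percentile) of 141 to 162 in the Input and 141 to 168 in the FLAG IP. The highest of them were Rrm2 (1.29 ± 0.16), Cdk1 (1.16 ± 0.20) and Bub1b (1.09 ± 0.18). Germ cell markers had 9 of 24 called higher and 0 lower, where 15.8% of all tested features were called higher and 21.3% lower. The 9 were Lhx1, Neurog3, Bcl6b, Id4, Ret, Nanos2, Gfra1, Etv5 and Lin28a. Ret had −7.07 and −6.65 in the Input, below the lowest level of any probe well above background there (−6.44 and −6.43). It passed the filter through the FLAG IP arrays alone, so its change is only bounded, though the count includes it. Under spike-in scaling Lin28a was −0.18 and the rest of the 9 stayed above 0. Those not called ranged from Piwil2 (−0.73) to Dazl (0.66), with Ddx4 at 0.16, Mael at 0.12 and Tex101 at 0.02. The germ cell list had a median of 0.16 and summed signals of 165 to 178 in the Input and 165 to 206 in the FLAG IP. Sertoli cell markers had 6 of 18 called lower and 0 higher, with sums of 328 to 351 and 229 to 235 in the same order. Leydig, peritubular myoid and macrophage markers had 4 of 8, 4 of 7 and 5 of 8 called lower and 0 higher, with sums of 29.9 to 39.5, 113 to 126 and 4.78 to 4.80 in the Input and 14.4 to 18.2, 74.7 to 76.6 and 2.63 to 2.67 in the FLAG IP. Lhcgr, a Leydig marker called lower, had −6.40 and −6.86 in the FLAG IP, below the lowest level well above background there (−6.25 and −6.39). It passed the filter through the Input arrays alone, and its change too is only bounded. Endothelial markers had 1 of 8 called each way, with sums of 2.93 to 3.82 and 2.72 to 3.66. Of the markers that define testis, 24 of the 25 for germ cells and 18 of the 18 for Sertoli cells had a matched probe. All of those with a probe were bright enough to test. The transcript of Nanos2 itself, from gene and transgene together, had −3.87 and −3.66 in the Input and −1.94 and −2.44 in the FLAG IP, a change of 1.58 ± 0.22 and called higher.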

How the data were processed

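RNA of 4 samples was measured on single-colour Agilent arrays. Per the labels' protocols, total RNA was labelled with Cy3 after amplification; the immunoprecipitation is not described there. Per the file headers, all 4 arrays lay on 1 slide scanned once, so neither is a batch. The deposited intensity files hold background-subtracted spot signals from Agilent Feature Extraction (version 9.5, per the submitters' processing notes). The authors' deposited table of log2 values matched log2 of those signals less a constant within 0.01 for 99.6% of probes on each array, at a 75th percentile of 9.76, with medians of 6.18, 6.25, 6.25 and 6.15 (Input 1, Input 2, FLAG IP 1, FLAG IP 2).

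Control spots and 62 to 90 outlier spots per array were left out, spots of a probe were averaged, and each array was centred on its 75th percentile (signals of 1474, 1676, 1019 and 1267 in the same order). Between 66.3% and 68.4% of probes were well above background, flagged so in a share of at least 0.5 of their spots. Accessions matched to RefSeq transcripts of GRCm38.p6 named 55.7% of 41159 probes, and a gene's brightest probe was used. Coordinates are left out because the array design predates that build. The comparison was fitted in limma 3.58.1 (R 4.3.3; lmFit, eBayes, two-sided, Benjamini-Hochberg over 21589 features), checked on simulated data. The number of arrays limits the precision. Genes given in full were all members called, all in the duplication, barrel and gamma-tubulin groups, and Pcnt; of other lists, up to 3 called in each direction. Members and lists were chosen with earlier results of these data known. The values of 1 member are not reported here, though counts include it. Protein lengths, listed in the design, were not analysed here, since no protein table was used.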

Additional observations from a re-analysis of the deposited data

How the results depend on the processing

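All 14 calls among the centrosome and centriole genes kept their direction and their call with normexp background correction, quantile normalization, the authors' deposited table, a filter on all 4 arrays, and trend and robust moderation, although with normexp Cep44 was −0.53 and Pcnt −1.04. Scaling to spike-in spots gave 3 members called higher and 15 lower with a member median of −0.67, and 931 and 13461 features in all; it turned 14 of the 22 members above 0, among those described singly Cenpj (−0.12), Cep120 (−0.40), Cep135 (−0.15), Cep19 (−0.33), Cep72 (−0.082), Cep97 (−0.056), Plk4 (−0.72) and Tubg2 (−0.59). Spike-in scaling centred on the main median, chosen after seeing the data, kept 10 of the 14 calls. It called 2351 features higher and 2355 lower. Without a filter on dim probes 7 members were called higher and 3 lower, and 2616 features higher and 3021 lower. The main fit did not use the replicate numbers as pairs. The deviations of like-numbered arrays correlated at −0.38 over features, which does not settle whether the numbers mark shared material, and that was not tested. With the replicate number as a block 9 of the 14 calls remained, and those of Cep170b, Cep19, Cep72, Cep97 and Tubgcp5 were lost. In that fit 7 members were called higher, and 2269 features were higher and 2290 lower. The crossed block, also chosen after seeing the data, gave 12 members higher and 5 lower. Leaving out 1 array at a time gave 3 to 12 members higher and 0 to 8 lower, and 997 to 3717 features higher and 595 to 4572 lower, with a member median of 0.01 to 0.24. In these fits Plk4, not called, ranged from −0.039 to 0.24, with −0.0012 without Input replicate 2, and Tubgcp2, not called, from −0.13 to 0.012. The causes were not tested, except that fits on 3 arrays have fewer samples. Slide and scan could not be set as a block, with 1 of each. Probes not well above background give only bounds.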
